A study of Mus musculus with 2 samples.

Results

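The genes described here are 10 stromal cytokine, chemokine and feedback genes, of 46095 genes in the count table of C3H10 cells with and without MALAT1 knockdown. They were taken from the table by their symbols: Ccl2, Ccl7, Cxcl1, Cxcl5 and Cxcl12 (chemokines), Il6, Csf1 and Il33 (cytokines), and Nfkbia and Socs3 (feedback inhibitors). C3H10 (C3H/10T1/2) is a mouse embryonic mesenchymal line that can become adipocytes, labelled here as a fibroblast precursor of strain C57BL/6. RNA was sequenced in 1 library of cells given a negative control antisense oligonucleotide (ASO NC, control cells) and 1 library of cells given an oligonucleotide that depletes MALAT1, a nuclear long noncoding RNA (ASO MALAT1, knockdown cells). Both cultures received 100 nM ASO with RNAiMAX for 8 hours at 70% confluence, grew to confluence, and were then induced for 2 days with 10 ng/mL insulin, 0.5 mg/L of the PPARγ agonist troglitazone, 5 mM dexamethasone and 0.5 mM isobutylmethylxanthine (doses as the labels give them). Insulin alone followed, and the cells were collected at day 6 of differentiation. Both groups therefore carry a transfected ASO and had met dexamethasone, a glucocorticoid, and no untransfected culture was analysed here. The sources used here do not say which MALAT1 oligonucleotide the sequenced cells received. Each group is 1 culture of 1 cell line.

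Chemokines are small secreted proteins that draw leukocytes along a gradient. CC chemokines such as CCL2 and CCL7 act mainly on monocytes, CXC chemokines such as CXCL1 and CXCL5 act on neutrophils, and CXCL12 retains hematopoietic cells in their stromal niche. The transcription factor NF-κB induces many of these genes after IL-1, TNF or Toll-like receptor signals, and it also induces Nfkbia, whose protein IκBα returns NF-κB to the cytoplasm. IL-6 signals through JAK kinases and STAT3, which induces Socs3, whose protein blocks the IL-6 receptor subunit gp130. In adipose tissue, preadipocytes and other stromal cells are a main source of CCL2, CXCL12, CSF1 and IL-33.

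Total counts were 58147539 for ASO NC and 61653549 for ASO MALAT1. With 1 library per group no difference has a replicate check, so the intervals given are 95% Clopper-Pearson limits for counting error only, and tests on the counts compare these libraries, not the conditions. Reads of 1 molecule counted more than once would make the intervals too narrow. Malat1 itself had 170402 counts in ASO NC cells and 45396 in ASO MALAT1 cells, or 24.7% of the control level. Of 13 leukocyte and macrophage markers, Ptprc, Adgre1, Itgam, Cd3e, Ly6g and Tyrobp were at 0 counts in both libraries. Of the 5 tested, Lyz2 was called higher from 7 to 25 counts, Cd14 had 362 and 536 counts, Cd68 had 172 and 119, Csf1r had 3 and 13, and Fcer1g had 6 and 9. All 13 markers summed to 9.51 CPM (counts per 1000000 counts of the library) in control cells and 11.4 CPM in knockdown cells. The 12 fibroblast and preadipocyte markers summed to 15160 CPM and 17380 CPM. Of these markers, Dlk1 had 0 counts in both libraries. In bulk RNA, fewer cells of a type and less RNA per cell cannot be told apart.

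NF-κB and STAT3 act through short DNA elements, and the promoter stretches that hold such letters are shown to set the cytokine genes beside their feedback inhibitors. RefSeq promoter windows of GRCm38.p6 were matched for 7 of the 10 genes, and the 250 bases before the RefSeq start in each window were searched on both strands. Windows for Ccl2, Ccl7 and Cxcl5 were not among them. The NF-κB consensus was found in the windows of Il6, Cxcl1, Csf1 and Nfkbia, against 7.25% of all 32851 promoter windows of the same length. Capitals mark the match in each stretch, 5′ to 3′ on the gene's strand, with up to 30 bases on either side.

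Il6, chr5:30013040-30013109, plus strand: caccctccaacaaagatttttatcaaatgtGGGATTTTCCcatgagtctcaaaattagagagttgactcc
Cxcl1, chr5:90891144-90891214, plus strand: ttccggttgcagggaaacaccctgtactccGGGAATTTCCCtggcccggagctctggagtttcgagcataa
Csf1, chr3:107760584-107760653, minus strand: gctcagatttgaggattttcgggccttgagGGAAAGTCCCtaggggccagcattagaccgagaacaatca
Nfkbia, chr12:55492648-55492706, minus strand: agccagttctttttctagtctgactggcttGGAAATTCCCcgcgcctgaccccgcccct

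In Cxcl1 matches on opposite strands overlap, and the capitals run over both. The match began 44 bases before the RefSeq start of Il6, 71 before that of Cxcl1, 154 before that of Csf1 and 29 before that of Nfkbia. The RefSeq start of Cxcl1 is 4 bases downstream of the GENCODE start given with its values, and those of Il6, Csf1 and Nfkbia are the same. A STAT element, spelled TTCNNNGAA, was found once, in the window of Socs3, against 7.02% of all windows, and it overlapped no NF-κB match. The stretch around it has the element in capitals.

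Socs3, chr11:117969482-117969550, minus strand: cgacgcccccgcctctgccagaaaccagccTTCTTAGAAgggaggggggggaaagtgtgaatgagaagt

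The RefSeq start of Socs3 is 681 bases downstream of its outermost GENCODE start, so this stretch lies inside the gene span given with its values. The windows of Cxcl12 and Il33 (the latter with 2 windows) held neither element. A match is a run of letters and does not show that a factor was bound, and no binding was measured here.

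All 10 genes had at least 10 counts summed over the libraries and were tested with 17356 genes in all. Fold changes compare knockdown with control cells after scaling by edgeR's TMM factors. Calls needed a change of at least 2-fold and an adjusted p under 0.05 in an exact binomial test, with Benjamini-Hochberg adjustment over all genes tested. None of the 10 genes was called, where 2.19% of all genes tested were called higher and 4.09% lower. Without a test, 4 of the 10 genes were at least 1.5-fold higher (Ccl2, Ccl7, Cxcl5 and Il33) against 8.29% of all genes tested, and 0 were at least 1.5-fold lower against 11.9%. With the libraries scaled to fibroblast markers instead, a scaling chosen after the data were seen and described with those markers, 0 of the 10 genes were past 1.5-fold. That scaling moved the median of all genes tested by -0.28, and the share of them past 1.5-fold on it was not computed. On the TMM scale the other 6 genes lay within 1.5-fold. At an adjusted p under 0.05 with no fold threshold, 7 of the 10 genes were higher and 1 was lower, against 24.2% and 23.8% of all genes tested. Passing this way depends on the count, and Cxcl12 passed as higher at a log2 fold change of 0.03. Of all genes tested, 5217 had a mean under 100 counts, and of the 10 genes only Il6 did. These shares were not matched for count. The median log2 fold change of the 10 genes was 0.26, or -0.026 when scaled to fibroblast markers, and that of all genes tested was 0.00, with 49.6% of them above 0.

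The neighbouring genes Ccl2 and Ccl7, whose products attract monocytes, were both at least 1.5-fold higher in knockdown cells on the TMM scale. Ccl2 (chromosome 11, 82035571 to 82037453, plus strand, GENCODE M21 on GRCm38) had 4839 counts in ASO NC cells and 9296 in ASO MALAT1 cells. This was 83.2 CPM (95% interval 80.9 to 85.6) and 151 CPM (148 to 154), a 1.78-fold higher level in knockdown cells with a log2 fold change of 0.84 (0.79 to 0.89). Among the 8251 genes with a mean of at least 1000 counts, 13 genes including Ccl2 had a log2 fold change this high. Ccl7, whose protein shares the receptor CCR2 with CCL2, lies beside it from 82045712 to 82047525. It had 2209 counts in ASO NC cells and 4117 in ASO MALAT1 cells, or 38.0 CPM (36.4 to 39.6) and 66.8 CPM (64.8 to 68.9). The log2 fold change was 0.79 (0.72 to 0.87), and 23 of the 8251 genes were at or above it. The intervals of the fold changes of Ccl2 and Ccl7 overlapped. The count of Ccl7 per 100 counts of Ccl2 was 45.7 in control cells and 44.3 in knockdown cells.

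The other genes of the Ccl2 cluster were rare or not detected. Ccl11, the eosinophil attractant eotaxin, is the next gene, with 27 counts in ASO NC cells and 11 in ASO MALAT1 cells, and was called lower at a log2 fold change of -1.36 (-2.56 to -0.34). Ccl8 had 4 counts in each library, and Ccl12 and Ccl1 had 0 counts in both. Ccl2 and Ccl7 thus carried nearly all counts of the cluster. The transcript annotation places Gm17268 over Ccl2 on the opposite strand, and it has no entry in the table. The libraries were made with a directional kit, but whether strand was used in counting is not given in the sources used here.

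**Figure D1:**
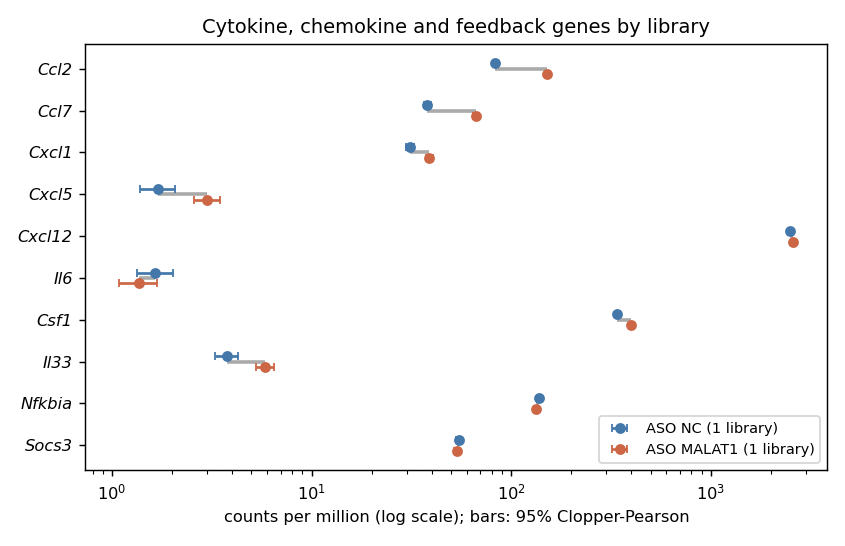
Level of each of the 10 genes in CPM on a log scale, with 1 point per library (ASO NC in blue, ASO MALAT1 in orange) and bars for the 95% Clopper-Pearson interval of counting error. Ccl2 moves from 83.2 to 151 CPM and Ccl7 from 38.0 to 66.8 CPM, while Nfkbia lies at 138 and 133 CPM and Socs3 at 54.7 and 53.8 CPM.

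The neutrophil-attracting CXC chemokines differed by less, or rested on few counts. Cxcl1 (chromosome 5, 90891241 to 90893115, plus strand) had 1812 counts in ASO NC cells and 2393 in ASO MALAT1 cells, or 31.2 CPM (29.7 to 32.6) and 38.8 CPM (37.3 to 40.4). Its log2 fold change of 0.29 (0.21 to 0.38) was matched or passed by 6.96% of genes with at least 1000 counts. Cxcl5 (chromosome 5, 90759360 to 90761624, plus strand) had 99 and 185 counts, or 1.70 CPM (1.38 to 2.07) and 3.0 CPM (2.58 to 3.47). A log2 fold change of 0.79 (0.44 to 1.16) equalled that of Ccl7, but with an interval that ran from below 1.5-fold to past 2-fold. Cxcl5 was thus higher by more than Cxcl1 with intervals that did not overlap, although it was the rarer of the pair in both libraries. Among the 3888 genes with a mean of 100 to 1000 counts, 1.80% were at or above Cxcl5. Between them in the genome, Ppbp, Pf4 and Cxcl3 had 0 counts in both libraries, and Cxcl15 had 2 and 5 counts. Cxcl2, another neutrophil attractant next to Cxcl1, had 0 counts in ASO NC cells and 5 in ASO MALAT1 cells, too few to be tested. Of 1876 words of 50 bases in the Cxcl5 transcripts, 0.693% also occur in transcripts of other genes, and none do for the other 9 genes.

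Cxcl12, the niche chemokine, was the most abundant of the 10 genes and nearly the same in both libraries. The gene (chromosome 6, 117168535 to 117181367, plus strand) had 145416 counts in ASO NC cells and 159867 in ASO MALAT1 cells, or 2501 CPM and 2593 CPM. The log2 fold change was 0.03 (0.02 to 0.04), or -0.25 when scaled to fibroblast markers. Its counts were 78.3% of the summed counts of the 10 genes in control cells and 75.2% in knockdown cells. Of its receptors, Cxcr4, named after its value was seen, had 6 and 5 counts, and Ackr3, which also scavenges CXCL12, had 1192 and 1591 counts with a log2 fold change of 0.31 (0.20 to 0.42).

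Of the cytokines, Il33 was the one at least 1.5-fold higher on the TMM scale. Il33 (chromosome 19, 29925114 to 29960718, plus strand) encodes a nuclear alarmin of the IL-1 family that is released by damaged stromal cells. It had 219 counts in ASO NC cells and 362 in ASO MALAT1 cells, or 3.77 CPM (3.28 to 4.30) and 5.87 CPM (5.28 to 6.51). The log2 fold change was 0.62 (0.37 to 0.87), and 4.12% of the genes with 100 to 1000 counts were at or above it. As a fold the value was 1.53 (1.295 to 1.824), so its interval reached below 1.5-fold. Csf1 (chromosome 3, 107741048 to 107760469, minus strand), the survival factor of macrophages, had 19729 and 24705 counts, or 339 CPM (335 to 344) and 401 CPM (396 to 406). This was a log2 fold change of 0.22 (0.19 to 0.25), or -0.064 when scaled to fibroblast markers, and on the first scale it was matched or passed by 12.4% of genes with at least 1000 counts. Il6 (chromosome 5, 30013114 to 30019981, plus strand), the cytokine that links inflammation to the acute phase, was rare. It had 96 counts in ASO NC cells and 84 in ASO MALAT1 cells, or 1.65 CPM (1.34 to 2.02) and 1.36 CPM (1.09 to 1.69). Its log2 fold change of -0.30 had an interval from -0.74 to 0.14, so on the TMM scale a difference was not detectable at this depth. Scaled to fibroblast markers, the value was -0.58 with an interval from -1.02 to -0.14, which leaves out 0.

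The feedback inhibitors were close to level between the libraries on the TMM scale. Nfkbia (chromosome 12, 55489410 to 55492647, minus strand) had 8049 counts in ASO NC cells and 8220 in ASO MALAT1 cells, or 138 CPM (135 to 142) and 133 CPM (131 to 136). Its log2 fold change of -0.08 (-0.12 to -0.03) left out 0 by little. Socs3 (chromosome 11, 117966079 to 117970047, minus strand) had 3181 and 3314 counts, or 54.7 CPM (52.8 to 56.6) and 53.8 CPM (51.9 to 55.6). Its log2 fold change was -0.05 (-0.12 to 0.02). Scaled to fibroblast markers, Nfkbia was at -0.36 (-0.40 to -0.31) and Socs3 at -0.33 (-0.40 to -0.26), and both intervals left out 0. The interval of Nfkbia lay wholly below those of Ccl2, Ccl7, Cxcl1, Cxcl5, Cxcl12, Csf1 and Il33, and it overlapped those of Il6 and Socs3. Of the 3 other genes with the NF-κB letters in a searched window, Cxcl1 and Csf1 thus lay above Nfkbia. The wide interval of Il6, a rare gene, overlapped that of Nfkbia. Of the searched genes without these letters, Cxcl12 and Il33 also lay above Nfkbia, and the interval of Socs3 overlapped that of Nfkbia. The letters thus did not separate the genes that lay above Nfkbia from the others. Ccl2, Ccl7 and Cxcl5 had no window to search.

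**Figure D2:**
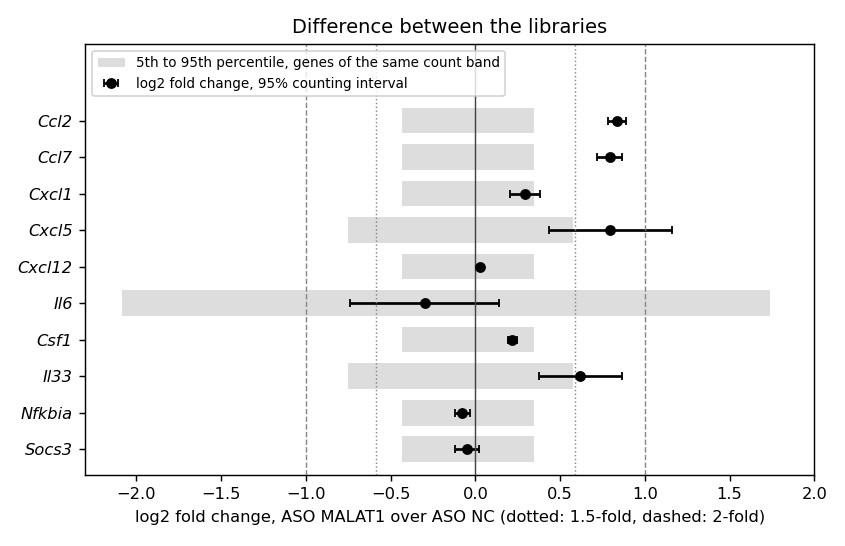
Log2 fold change of each of the 10 genes (points) with its 95% counting interval (bars), over the range from the 5th to the 95th percentile of all tested genes in the same band of mean count (grey; under 100, 100 to 1000, or at least 1000 counts). Ccl2, Ccl7, Cxcl5 and Il33 lie above the grey range of their band and past the 1.5-fold line, and no gene is past the 2-fold line.

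Per length of exon, counting 1 kb of all annotated exons of a gene, the order of the levels was set by Cxcl12 at the top and Il6 at the bottom in both libraries. In control cells the levels in scaled CPM per kb were 308 for Cxcl12, 86.6 for Nfkbia, 73.7 for Ccl2, 64.7 for Csf1 and 47.8 for Ccl7. They were 19.1 for Socs3, 16.8 for Cxcl1, 1.32 for Il33, 0.921 for Cxcl5 and 0.685 for Il6, and of these neighbours only Cxcl5 and Il6 had overlapping intervals. In knockdown cells Ccl2 was next after Cxcl12 at 131.5 and Ccl7 followed at 82.7, ahead of Nfkbia at 82.2 and Csf1 at 75.3, with overlapping intervals for Ccl7 and Nfkbia. Cxcl1 at 20.5 stood above Socs3 at 18.4, and Il33 at 2.02 and Cxcl5 at 1.60 overlapped. Ccl2 thus stood below Nfkbia in control cells and above it in knockdown cells.

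**Figure D3:**
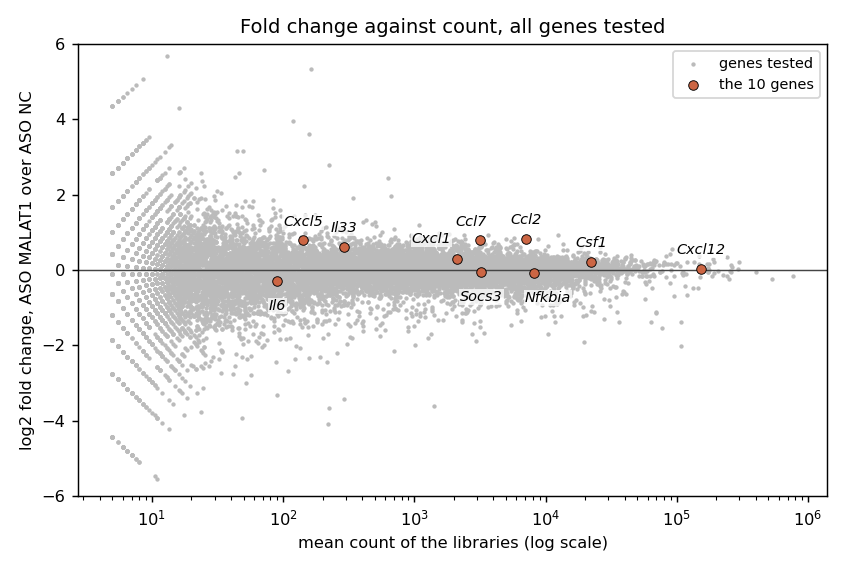
Log2 fold change against the mean count of the libraries (log scale) for the 17356 genes tested (grey points), with the 10 genes in orange. The grey cloud widens at low counts, where Il6 lies inside it, while Ccl2 and Ccl7 lie along its upper edge at mean counts over 1000.

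The spread between the libraries depended on the count. Among genes with a mean under 100 counts, 21.7% were at least 1.5-fold higher and 28.9% at least 1.5-fold lower. This was 4.81% and 8.15% for genes with 100 to 1000 counts, and 1.43% and 2.84% for genes with at least 1000. The values of Ccl2 and Ccl7 thus stand against a narrower spread than those of Cxcl5 and Il33. When edgeR's exact test was given an assumed biological variation of 0.1, Ccl2 and Ccl7 had an adjusted p under 0.05 with no fold threshold. At 0.2, 0 of the 10 genes did. The share of all genes tested that passed this way was not computed. With the 2-fold threshold added, 202 of all genes tested were higher and 466 lower at 0.1, and 22 and 95 at 0.2.

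Adipocyte markers were lower in the same knockdown library. Of 10 adipocyte markers, 9 were called lower, with a median log2 fold change of -1.37 and a range from -1.91 for Gpd1 to -0.57 for Pparg. Over all genes tested 4.09% were called lower and 2.19% higher. The summed level of these markers was 7877 CPM in control cells and 3034 CPM in knockdown cells. Of the 12 fibroblast and preadipocyte markers, 11 were tested, 10 were higher and 1 was called higher (Cd34, from 19 to 69 counts), with a median of 0.28. By point value, Ccl2, Ccl7, Cxcl5 and Il33 each had a log2 fold change above 10 of the 11 fibroblast markers tested, Cd34 being the exception. The interval of Thy1 (0.13 to 0.85) overlapped that of each of these genes. That of Il33 also overlapped those of S100a4 and Eng. By point value again, Cxcl1 lay above 6 of the 11 markers and Csf1 above 4, while Nfkbia, Socs3 and Il6 lay below all 11. When the libraries were scaled so that the median of the fibroblast markers was 0, Ccl2 was at 0.55, Ccl7 at 0.51, Cxcl5 at 0.51 and Il33 at 0.34. On that scale Cxcl1 was at 0.01, Csf1 turned from 0.22 to -0.064, Cxcl12 turned from 0.03 to -0.25, Socs3 was at -0.33, Nfkbia at -0.36 and Il6 at -0.58, the largest absolute value of the 10 genes on this scale. The same scaling moved the median of all genes tested by -0.28, with 239 genes called higher and 1257 lower, in place of 380 and 710. The part of the cell mixture in the differences of the 10 genes was not tested. The 6 endothelial markers summed to 1.39 CPM and 1.96 CPM. Of the 4 tested, Vwf was called higher from 12 to 30 counts and Emcn from 20 to 45, while Pecam1 had 26 and 25 counts and Tek had 23 and 19. Cdh5 and Kdr each had 0 counts in ASO NC cells and 1 in ASO MALAT1 cells.

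The other genes of the pathways were taken from lists written by hand. For the chemokine lists that follow, the shares called over all genes tested were 2.19% higher and 4.09% lower. Of 21 CC chemokine ligands, 9 had 0 counts in both libraries and 8 were tested, with 0 called higher and 1 called lower (Ccl11). The median log2 fold change of the tested ligands was 0.11, and Ccl2 and Ccl7 were the only ones at least 1.5-fold higher. Of 17 CXC, CX3C and XC ligands 7 were tested, with a median of 0.03, 0 called higher and 1 called lower. The lower gene was Cxcl13, a B cell attractant, with 36 and 17 counts. Cx3cl1, the membrane-bound fractalkine, had the second highest level per kb of this list, 26.01 in control and 30.5 in knockdown cells, and a log2 fold change of 0.23 (0.18 to 0.28). Of 23 chemokine receptors and scavengers 14 had 0 counts in both libraries and 5 were tested, with 0 called higher and Ccr7, a receptor of dendritic cells and lymphocytes, called lower from 24 to 8 counts. Ccr2, the receptor of CCL2 and CCL7, and Cxcr2, that of CXCL1 and CXCL5, were named for their ligands after their values were seen and had 0 counts in both libraries, which allows up to 0.0516 CPM in control and 0.0487 CPM in knockdown cells. Ccrl2, an atypical receptor, went from 57 to 101 counts with a log2 fold change of 0.71 (0.24 to 1.21).

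In the IL-1 family, to which Il33 belongs, a receptor chain was called higher. Of 20 genes 16 were tested, with a median log2 fold change of 0.08, 1 called higher and 0 called lower. Over all genes tested 2.19% were called higher and 4.09% lower. The called gene was Il18rap, a chain of the IL-18 receptor, with 70 and 179 counts and a log2 fold change of 1.24 (0.84 to 1.67). Il18r1, the other chain of that receptor, named after its value was seen, had 0 counts in both libraries. Il1rl1, which encodes ST2, the receptor of IL-33, had 982 and 2083 counts and a log2 fold change of 0.98 (0.87 to 1.09), just under 2-fold. It is named because it pairs with Il33 and was chosen after its value was seen. Il33 and its receptor gene were thus both at least 1.5-fold higher, and the count of Il33 per 100 counts of Il1rl1 was 22.3 in control cells and 17.4 in knockdown cells. The most abundant gene of the list per kb was Il1rn, the receptor antagonist that blocks IL-1, at 508 in control and 626 in knockdown cells, with a log2 fold change of 0.30 (0.29 to 0.31). Il1r1, the IL-1 receptor, was second with a log2 fold change of -0.04 (-0.08 to 0.00). Il1a and Il1b, the agonists of this receptor, had 0 counts in both libraries.

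In the IL-6 and JAK-STAT lists no gene was called, where 2.19% of all genes tested were called higher and 4.09% lower. Of 20 genes of the IL-6 family and its signalling 18 were tested, with 0 called in either direction, a median of -0.03 and a range from -0.30 to 0.86. The genes at least 1.5-fold higher were Cntf, with 10 and 20 counts, and Il11, with 7 and 12 counts, both cytokines of this family named after their values were seen. Il6st, the shared receptor subunit gp130, had 35529 and 37764 counts and a log2 fold change of -0.02 (-0.04 to 0.00). Of 15 SOCS and other JAK-STAT inhibitors 15 were tested and 0 were called, with a median of -0.04 and a range from -0.14 to 0.34. Socs3 and Pias2, an inhibitor of STAT proteins, had log2 fold changes of -0.05 and -0.04. In the list of colony-stimulating factors and their receptors 4 of 8 genes were tested and 0 were called, with a median of 0.23. Il34, the other ligand of the CSF1 receptor, had 332 and 420 counts and a log2 fold change of 0.23 (0.02 to 0.44). The receptor gene Csf1r, named after its values were seen, had 3 and 13 counts. It was not called here, but was called higher with another two-sided form of the exact binomial p.

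The NF-κB machinery showed no called gene, where 2.19% of all genes tested were called higher and 4.09% lower. Of 8 NF-κB subunits and IKK genes 8 were tested, with a median of 0.02. Rela, an activating subunit, had a log2 fold change of 0.00 (-0.06 to 0.07), and Nfkb2 one of 0.12 (0.07 to 0.17). Of 16 NF-κB inhibitors and feedback genes 15 were tested, with a median of -0.05 and a range from -0.45 to 0.21. The lowest was Tnfaip3, which encodes the ubiquitin-editing inhibitor A20 and was named after its value was seen, from 2375 to 1876 counts. Its partner Tnip1 went from 8182 to 6484 counts with a log2 fold change of -0.44 (-0.49 to -0.39). Of 17 genes of the TNF ligand, its receptors and adaptors 12 were tested and 0 were called, with a median of 0.05. Tnfrsf1a, the main TNF receptor, had a log2 fold change of -0.14 (-0.18 to -0.10) and Ltbr, the lymphotoxin receptor, one of 0.08 (0.03 to 0.13). Tnf itself had 0 counts in both libraries.

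Of 18 NF-κB target genes other than cytokines 16 were tested, with a median of -0.04, 1 called higher and 2 called lower. Of all genes tested, 2.19% were called higher and 4.09% lower. Hp, which encodes the hemoglobin-binding protein haptoglobin and is also made by adipocytes, went from 93268 to 46126 counts and was called lower, at -1.12 (-1.14 to -1.11) on the log2 scale. Nos2, the inducible nitric oxide synthase, was called lower from 36 to 10 counts. Ptges, a prostaglandin E synthase, was called higher from 25 to 73 counts, at 1.42 (0.77 to 2.16) on the log2 scale. C3, the central complement component, was second to Hp per kb in control cells and above it in knockdown cells, with a log2 fold change of -0.25 (-0.26 to -0.24). The called targets lay in both directions, but Nos2 and Ptges had a mean under 100 counts. In that band 21.7% of genes were at least 1.5-fold higher and 28.9% at least 1.5-fold lower.

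**Figure D4:**
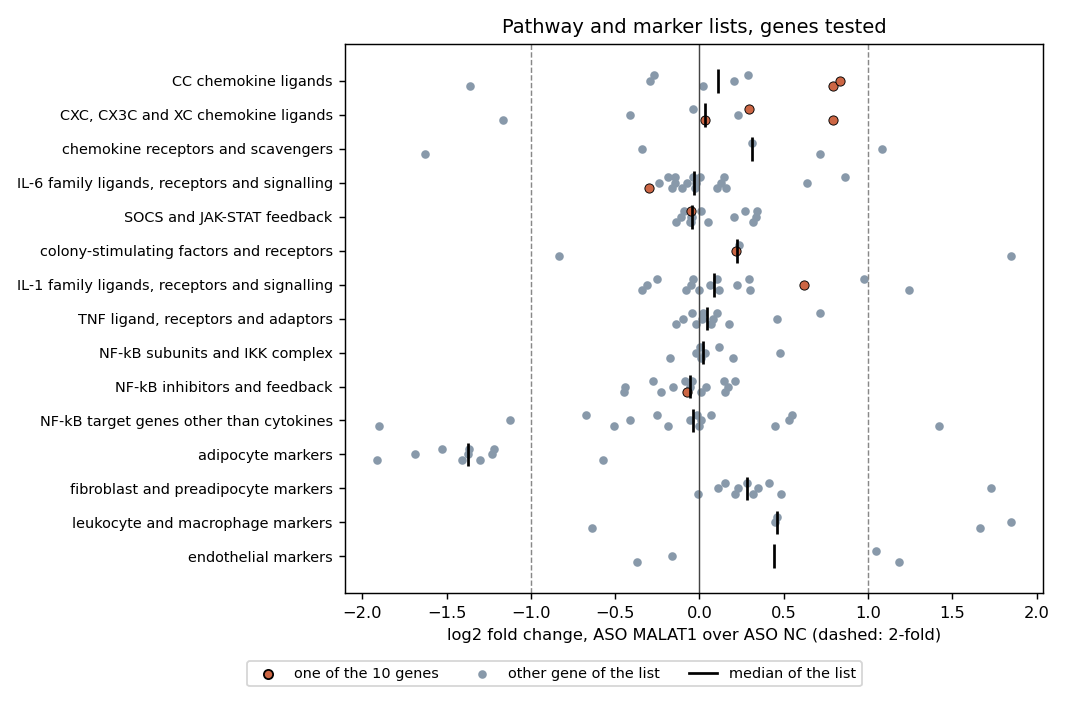
Log2 fold change of every tested gene in the pathway and marker lists (1 point per gene), with the 10 genes in orange and the median of each list as a black line. The medians of the SOCS and NF-κB lists lie near 0, the NF-κB target genes spread from -1.90 to 1.42, Ccl2, Ccl7, Cxcl5 and Il33 stand to the right of the medians of their lists, and the adipocyte markers lie between -1.91 and -0.57.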

How the data were processed

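The authors deposited raw read counts per gene symbol, without normalization, for 1 library of rRNA-depleted total RNA per group. The submitters' processing notes name HISAT2 and GRCm38, but the counting tool, the annotation, the strand setting and the treatment of duplicate and multiply mapping reads are not given in the sources used here. Genes with at least 10 counts summed over the libraries were tested. Library sizes were scaled by TMM factors (edgeR 4.0.16, R 4.3.3), which were 0.992 for the control and 1.01 for the knockdown library. Log2 fold changes used a prior count of 0.5. The counts of each gene were compared by an exact binomial test (two-sided, scipy 1.17.1, Python 3.11.15; 2 times the smaller tail, the form that Clopper-Pearson limits invert, adopted after the calls of this and the other two-sided form had been seen) with Benjamini-Hochberg adjustment over all 17356 genes, since edgeR's quasi-likelihood test needs replicates. The test was checked on simulated counts that varied by counting error only. That check does not cover variation between cultures. CPM uses the library total, with 0 counts allowing up to 3 counts, or 0.0516 and 0.0487 CPM. Gene positions and exon lengths are from GENCODE M21 on GRCm38, whose release is not known to be the authors' annotation. The genes named are the 10 genes, the called genes of each pathway list (at most 5), the 2 most abundant per kb, and the neighbours in the chemokine clusters. Marker genes were named after their values were seen, and other genes outside the rule are said to be chosen after their values were seen. A gene that this rule names is not reported here. The 10 genes and the 15 lists were chosen with earlier results of these data known. The alternatives were library totals, DESeq2 1.42.0 size factors, upper-quartile factors, other filters, prior counts of 0.125 and 2, edgeR's exact test at an assumed biological coefficient of variation, and other fold thresholds.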

Additional observations from a re-analysis of the deposited data

How the results depend on the processing

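Upper-quartile factors, DESeq2 size factors, plain library totals, the other filters and the other prior counts moved the log2 fold change of each of the 10 genes by at most 0.0221 and turned the direction of none. The count of genes called among the 10 was 0 in all of these and in edgeR's exact test at an assumed coefficient of variation of 0.1, 0.2 or 0.4. With the exact binomial test it was 4 at a 1.5-fold threshold. Without a test, 8.29% of all genes tested were at least 1.5-fold higher and 11.9% lower. The share of them that passed both 1.5-fold and the test was not computed. With no fold threshold the count among the 10 genes was 8, where 24.2% of all genes tested passed as higher and 23.8% as lower. The scaling to fibroblast and preadipocyte markers, chosen after the data were seen, left 0 of the 10 genes past 1.5-fold in place of 4, and turned the median of the 10 genes to -0.026, Cxcl12 to -0.25 and Csf1 to -0.064. This follows from its construction, since it lowers each log2 fold change by 0.28. The share of all genes tested past 1.5-fold on that scale was not computed. Over all genes tested, 380 were called higher and 710 lower, against 166 and 395 when each library had to hold at least 10 counts, 202 and 466 with edgeR's exact test at an assumed coefficient of 0.1, 22 and 95 with 0.2, and 1 and 0 with 0.4. The doubled-tail form of the binomial p was adopted after the data were seen. The other form, which sums outcomes no likelier than the one seen, called 428 genes higher and 736 lower, 0 of the 10 genes among them, and of the listed genes it changed the call of Csf1r. No paired analysis was possible because each group has 1 library. Depth limits Il6, Cxcl5 and Il33 most, whose intervals are the widest of the 10 genes.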

Other observations

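Genes outside the chemokines and cytokines that lie downstream of the same signals are given as values only, and were picked after their values were seen. Tnfrsf11b, which encodes osteoprotegerin, the soluble decoy receptor of RANKL, had 746 counts in ASO NC cells and 1319 in ASO MALAT1 cells, or 0.72 on the log2 scale (95% counting interval 0.59 to 0.85). Ptgs2, the inducible cyclooxygenase that acts before the prostaglandin E synthase Ptges, had 275 and 434 counts, or 0.55 (0.33 to 0.77). Sod2, the mitochondrial superoxide dismutase and an NF-κB target, had 7878 and 5973 counts, or -0.51 (-0.55 to -0.46).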
